A study of Mus musculus with 4 samples.

Results

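The 10 genes described here code for Sox transcription factors of 5 groups: Sox1 and Sox2 (SoxB1), Sox21 (SoxB2), Sox4 and Sox11 (SoxC), Sox5 and Sox6 (SoxD), and Sox8, Sox9 and Sox10 (SoxE). They were chosen by name, and all 10 were present among the 45706 features of the count tables. Their unique molecular identifiers (UMIs, each marking 1 captured RNA molecule) were followed across 13 deposited clusters of nuclei sorted from the mouse dentate gyrus, from stem cells through neuroblasts to granule cells and in glia. Male and female mice that carried a tamoxifen-inducible Cre driver and the CAGfloxStop-Sun1/sfGFP reporter, 6 to 8 weeks old and kept on a C57Bl/6J background, received 4 tamoxifen injections in 2 days, which turned on the nuclear envelope tag Sun1-sfGFP in cells in which the driver was active, RGL among them, and in all their progeny. Tagged nuclei were collected at 1, 2, 4 or 8 weeks after induction (libraries w1, w2, w4 and w8), and each library was 1 pool of 4 mice. All 4 libraries share the transgenes and the tamoxifen treatment and differ in time, and the driver also tagged cells outside the neuronal lineage.

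Sox proteins bind DNA through a high mobility group (HMG) box, which fits into the minor groove and bends the double helix, and they act together with partner factors. SoxB1 proteins keep neural stem cells and progenitors undifferentiated, while SoxC proteins drive the expression of neuronal genes in postmitotic precursors and young neurons. SoxD proteins carry no transactivation domain of their own and modify the action of other Sox proteins, often those of the SoxE group. Within SoxE, Sox9 marks stem cells and astrocytes, Sox10 marks the oligodendrocyte lineage, and Sox8 is shared between glial types. The adult dentate gyrus holds radial glia-like stem cells (RGL) that give rise to neural progenitor cells (NPC), neuroblasts (NB1, NB2) and granule cells that are immature (GCimm1, GCimm2), young (GCyoung) and mature (GCmat1, GCmat2). Astrocytes (Astro), oligodendrocyte precursor cells (OPC), oligodendrocytes (Oligo) and a cluster labelled Peri complete the set.

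The DNA sequences of the HMG boxes show how close the paired members are. A box of 237 bases (79 codons) was found in the transcripts of 10 of 10 members. Identity lay between 81.4% and 89.5% over the 6 pairs within a group (median 84.2%) and between 53.2% and 87.8% over the 39 pairs from different groups (median 66.7%). The highest pairs from different groups joined SoxB1 and SoxB2, Sox2 with Sox21 (87.8%) and Sox1 with Sox21 (86.9%). All others were at 73.0% or below. The boxes of the SoxC and SoxD pairs are given from the GENCODE M21 transcripts on GRCm38, 5′ to 3′, with capitals at the bases that differ between the members of a pair. Sox4 and Sox11 shared 212 of 237 bases and differed at 25. Sox5 and Sox6 shared 196 and differed at 41.
Sox4: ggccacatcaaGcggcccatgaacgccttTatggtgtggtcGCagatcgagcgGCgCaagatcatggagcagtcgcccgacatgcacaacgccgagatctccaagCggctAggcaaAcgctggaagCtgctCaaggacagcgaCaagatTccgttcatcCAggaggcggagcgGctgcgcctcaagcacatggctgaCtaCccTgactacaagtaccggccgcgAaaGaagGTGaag
Sox11: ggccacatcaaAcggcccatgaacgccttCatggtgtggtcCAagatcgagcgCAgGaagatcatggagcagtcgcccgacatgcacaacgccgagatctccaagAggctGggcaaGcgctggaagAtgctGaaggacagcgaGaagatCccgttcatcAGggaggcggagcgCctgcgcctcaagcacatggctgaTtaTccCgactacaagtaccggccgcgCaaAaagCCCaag
Sox5: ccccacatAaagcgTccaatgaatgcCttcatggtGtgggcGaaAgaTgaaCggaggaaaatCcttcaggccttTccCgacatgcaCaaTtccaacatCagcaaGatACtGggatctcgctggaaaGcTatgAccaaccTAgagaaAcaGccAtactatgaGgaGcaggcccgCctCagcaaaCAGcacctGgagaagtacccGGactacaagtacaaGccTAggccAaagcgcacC
Sox6: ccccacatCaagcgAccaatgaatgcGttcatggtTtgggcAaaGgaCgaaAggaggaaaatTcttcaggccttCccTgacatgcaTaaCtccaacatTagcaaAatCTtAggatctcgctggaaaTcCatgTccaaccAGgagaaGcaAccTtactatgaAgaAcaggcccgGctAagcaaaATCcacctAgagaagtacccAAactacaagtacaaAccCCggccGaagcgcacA
The Sox4 box lies on chr13:28952617-28952853 (minus strand) inside a gene with a single exon, chr13:28948919-28953713. The Sox11 box lies on chr12:27342034-27342270 (minus strand), also in a gene with a single exon, chr12:27334264-27342574. Sox5 (chr6:143828425-144781977, minus strand) and Sox6 (chr7:115470872-116038796, minus strand) each have 25 merged exon blocks, over 953.553 kb and 567.925 kb. Their boxes were not placed on the genome. Gene length matters for these data, because intronic UMIs were counted, and levels are therefore compared between clusters for 1 gene and not between genes.

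Promoters are shown for the SoxC pair, whose levels rose together from RGL to NPC. The RefSeq sequences (GRCm38.p6, minus strand) are the 250 bases before the start of Sox4, chr13:28953700-28953949, and of Sox11, chr12:27342719-27342968, with the letters CCAAT (or ATTGG, the same motif on the other strand) in capitals.
Sox4: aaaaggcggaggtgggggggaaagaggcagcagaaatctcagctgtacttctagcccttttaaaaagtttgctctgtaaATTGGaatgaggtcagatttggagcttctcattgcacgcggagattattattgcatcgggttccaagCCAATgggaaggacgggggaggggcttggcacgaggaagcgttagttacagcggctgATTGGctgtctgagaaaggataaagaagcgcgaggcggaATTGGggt
Sox11: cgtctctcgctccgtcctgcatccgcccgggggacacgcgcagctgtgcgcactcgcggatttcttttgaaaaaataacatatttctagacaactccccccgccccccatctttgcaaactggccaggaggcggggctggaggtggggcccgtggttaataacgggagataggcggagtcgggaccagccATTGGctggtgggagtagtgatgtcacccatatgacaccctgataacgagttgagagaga
Motifs were searched on both strands in windows that run on to 50 bases after the start, 300 bases in all. CCAAT occurred 4 times for Sox4 and 1 time for Sox11, and at least once in 37.4% of the 32851 promoters of the RefSeq table. The E-box CAGCTG, which is contained in the wider motif CANNTG, occurred 1 time for each gene and in 16.3% of all promoters, against 72.3% for CANNTG. Neither window held TATAAA (13.6% of promoters) or the Sox core motif ACAAT (31.0%). The GC content of these windows was 52.0% for Sox4 and 58.7% for Sox11. An entry was found for 8 of 10 members, and Sox9 and Sox10 had none. These matches describe letters in a window and no binding.

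The libraries held 2867 (w1), 4243 (w2), 3831 (w4) and 3426 (w8) nuclei with a deposited cluster, 14367 of 17046 barcodes, and between 13227971 and 28595331 UMIs. Median UMIs per nucleus lay between 4057.5 (NB1) and 8138 (GCmat1) over the clusters, and pairs of libraries shared 2 to 7 barcodes (1 to 6 among the nuclei kept). Marker lists were highest in the clusters they name for NPC (5 of 5 genes), OPC (5 of 5), Oligo (5 of 5), Astro (5 of 6) and RGL (4 of 6). The neuronal lists were spread over neighbouring clusters: of 4 neuroblast genes 1 was highest in NPC, 2 in NB1 and 1 in NB2, and of 4 genes of immature granule cells 2 were highest in NB1, 1 in GCimm1 and 1 in GCimm2. Of 4 genes of mature granule cells 1 was highest in GCyoung, 2 in GCmat1 and 1 in GCmat2. Levels are given as CPM, the UMIs of a gene (or list) per 1000000 UMIs of the same nuclei. The cluster labelled Peri matched its label in part. Of 5 pericyte genes 3 were highest there, with a summed level of the list of 111 CPM, and Rgs5 and Higd1b, which define pericytes, were at 0 UMIs. All 7 genes of vascular leptomeningeal cells were also highest in it, at a summed 5989 CPM. Levels carry exact Poisson intervals, and shares of nuclei with a UMI carry exact Clopper-Pearson intervals. Both are at 95% and cover counting error only, and an interval of a level from 1 library says nothing about the spread between mice.

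Clusters were compared by 1 edgeR quasi-likelihood fit over 38 sums of UMIs per cluster and library with at least 10 nuclei, with terms for cluster and library. Sums with nuclei but fewer than 10 were left out for NPC and GCimm1 in w8 (2 nuclei and 1 nucleus), GCyoung and GCmat1 in w2 (9 nuclei each), Oligo in w1 (6) and Peri in w4 (2). No nuclei were present for Astro, NB1, NB2 and Peri in w8, GCimm2 and GCyoung in w1, and GCmat2 in w1 and w2. A change counted as called where its fold reached 1.5 and its p, adjusted over 11548 genes by the Benjamini-Hochberg procedure, did not exceed 0.05. Of the 10 members 8 passed the filter on low counts, and Sox1 and Sox2 did not. The authors drew the clusters from expression in the same nuclei, and 7 of the members were in their table (Sox21, Sox1 and Sox2 were not), though which genes entered the clustering was not checked. A test between clusters therefore gives the size of a change against the spread left between sums after the cluster and library terms. It is not independent of the clustering. Fewer nuclei that transcribe a gene and less RNA of it per nucleus cannot be told apart in such sums.

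Sox1 and Sox2, the SoxB1 genes that mark neural stem cells, were listed at 0 UMIs in all 14367 nuclei and also in the 2679 barcodes without a cluster. Both lie wholly inside a longer feature on the same strand. Sox2 (chr3:34650405-34652461, plus strand, 1 exon) lies inside Sox2ot (chr3:34104270-34682619), which had 10241 UMIs. Sox1 (chr8:12395295-12400126, plus strand, 1 exon) lies inside Gm5607 (named Sox1ot in GENCODE M21, chr8:12385771-12436768), which had 1427 UMIs. The same held for most genes in that position, as 364 of 371 protein-coding genes wholly inside another gene on the same strand (98.1%) were at 0. Of genes partly overlapped on the same strand 207 of 3075 (6.73%) were at 0, and of genes without such an overlap 3311 of 18073 (18.3%). The neuronal genes Tubb3 and Neurod1 and the SoxB1 partner Pou3f3 were nested in this way and at 0 too. How single reads over Sox1 and Sox2 were assigned was not tested, and no statement about the expression of these genes is made.

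Along the neuronal lineage, both features that hold Sox2 and Sox1 were highest in NPC, and Sox2ot was higher still in OPC and Oligo. Sox2ot had a level of 627 CPM in RGL, 1284 in NPC and 138 in NB1. It rose from RGL to NPC (log2 change 0.67) and fell from NPC to NB1 by 3.14 ± 0.28 (SE) on the log2 scale, adjusted p = 3.47e-13. In OPC it reached 3789 and in Oligo 1643, against 176 in Astro. Gm5607 had 145 CPM in RGL, 434 in NPC and 4.50 in NB1, a fall from NPC to NB1 by 6.42 ± 0.28 on the log2 scale, adjusted p = 1.28e-25. Unlike Sox2ot, Gm5607 was at 0 in OPC and Oligo. Whether UMIs from Sox2 or Sox1 RNA are part of these levels cannot be told apart in the deposited counts.

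**Figure D1:**
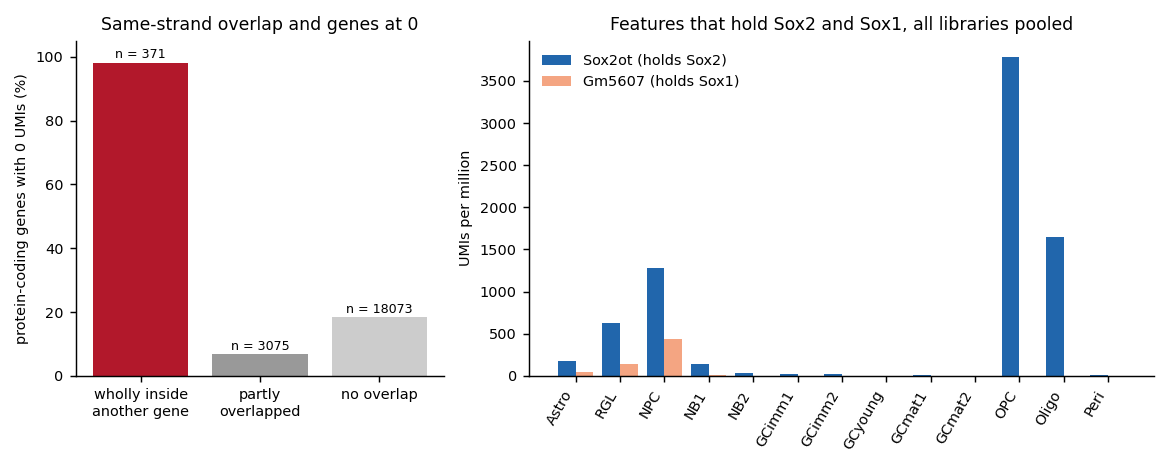
Left, share of protein-coding genes with 0 UMIs by their overlap with another gene on the same strand (bars; n is the number of genes in each class). Right, levels (CPM, all libraries pooled, bars) of Sox2ot and Gm5607 in each deposited cluster. Of the nested genes 98.1% were at 0, and Sox2ot peaked in OPC while Gm5607 peaked in NPC.

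Sox21, the SoxB2 gene, which counteracts SoxB1 proteins in progenitors, was near the limit of detection with 72 UMIs in 63 nuclei (0.439%). It was highest in Astro, OPC, NPC and RGL. Its level was 17.9 CPM in Astro (15.3, 17.8 and 21.7 in w1, w2 and w4), 17.8 in OPC (15.3, 24.3, 25.0 and 5.57 in w1, w2, w4 and w8), 5.25 in RGL and 6.57 in NPC. In RGL the libraries had 6.09, 6.58, 0.736 and 9.56, from 14, 14, 1 and 3 UMIs, so w4 stood low and the other 3 were alike. In NB1 it was 0.367 (4 UMIs). It fell from NPC to NB1 by 3.75 ± 1.03 on the log2 scale, adjusted p = 0.00259, a call lost without w1. It was higher in OPC than in RGL (log2 change 1.99 ± 0.60, adjusted p = 0.0132), which was lost without w2 or without w4. No UMI was found in 726 NB2, 979 GCimm2 or 3356 GCmat1 nuclei, and 0 of 3356 allows a share of up to 0.0894% (3 counts; for this and later counts of 0 the limit is on nuclei with a UMI, not on nuclei that express the gene).

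**Figure D2:**
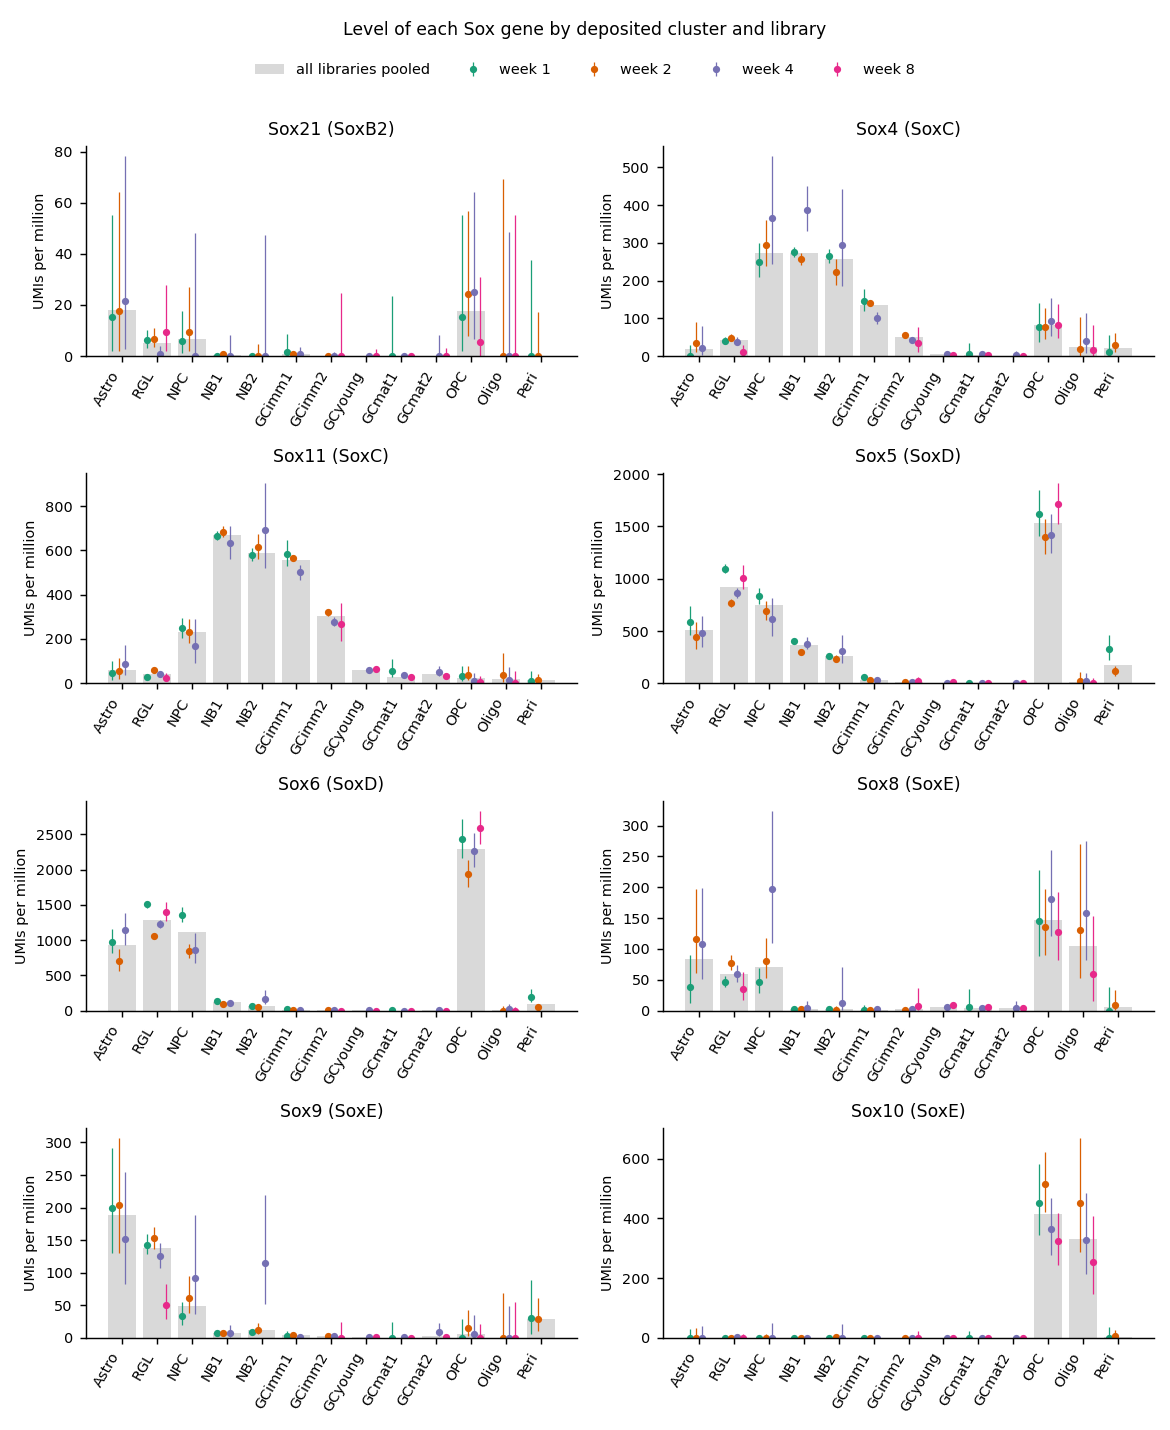
Levels of the 8 Sox genes with UMIs (vertical axes, CPM, with a range of its own for each gene) in the 13 clusters (horizontal axes). Grey bars are all libraries pooled, and points are libraries with at least 10 nuclei in the cluster, with exact Poisson 95% intervals; Sox4 and Sox11 are high from NPC or NB1 to GCimm1, Sox5 and Sox6 in Astro, RGL, NPC and OPC, and Sox10 in OPC and Oligo.

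The SoxC genes Sox4 and Sox11 rose at the step from stem cell to progenitor. Sox4 had 40.4, 48.9, 38.3 and 9.56 CPM in RGL of w1, w2, w4 and w8, and 250, 296 and 367 in NPC of w1, w2 and w4. Every NPC library stood above every RGL library, and w8 was the lowest RGL library, with 3 UMIs in 83 nuclei (interval 1.97 to 27.9). The log2 change from RGL to NPC was 2.49 ± 0.21 (SE), adjusted p = 1.65e-14. Sox11 had 28.3, 59.7, 41.2 and 22.3 CPM in RGL and 248, 231 and 170 in NPC of w1, w2 and w4. Its groups did not overlap either, and the log2 change was 2.15 ± 0.21, adjusted p = 1.32e-12. The rise was seen in w1, w2 and w4 alone, by 2.63, 2.60 and 3.26 on the log2 scale of raw levels for Sox4 and by 3.14, 1.95 and 2.05 for Sox11. These were the 2 members called higher in NPC, where 14.8% of all genes tested were called higher, while 3 were called lower against 16.8%.

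At the next step the SoxC pair parted. Sox11 rose again to 665, 684 and 632 CPM in NB1 of w1, w2 and w4, above each NPC library. The log2 change from NPC to NB1 was 1.77 ± 0.19, adjusted p = 1.76e-11. Sox4 in NB1 was 277, 257 and 388 and overlapped its NPC values, with a log2 change of 0.29 ± 0.19, adjusted p = 0.266. Of the 8 members tested 1 was called higher in NB1 (15.4% of all genes) and 5 lower (16.0%). Sox11 was found in 86.6% of NB1 nuclei (interval 85.2% to 87.9%) and Sox4 in 57.3% (55.4% to 59.3%). With each nucleus thinned to 2000 UMIs, these shares were 68.9% and 37.8%.

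Sox4 fell before Sox11 did. From NB1 to NB2 neither changed past the test (Sox4 256 and Sox11 590 CPM in NB2), and 0 of the 8 members did, with 1.92% of all genes called higher and 1.15% lower. At an unadjusted p under 0.05 there were 3 (Sox5, Sox6 and Sox9) by edgeR, and DESeq2 called 0 with 1 at that level. In GCimm1 Sox4 was at 147, 141 and 100 CPM in w1, w2 and w4, below each NB1 library, a fall by 1.09 ± 0.17 on the log2 scale, adjusted p = 1.04e-06. Sox11 in GCimm1 was at 585, 565 and 500, all below the NB1 libraries by raw level, but the log2 change was -0.15 ± 0.15, adjusted p = 0.664. At this step 4 members were called lower and 0 higher, against 5.20% and 8.04% of all genes.

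Both SoxC genes then fell through the later granule cell stages. From GCimm1 to GCimm2 Sox4 fell by 1.20 ± 0.20 on the log2 scale, adjusted p = 6.13e-06, to 56.1, 41.9 and 33.3 CPM in w2, w4 and w8. Sox11 fell by 0.67 ± 0.17, adjusted p = 0.00417, to 320, 278 and 267. The Sox11 call was lost without w2 or without w4, and within each of those libraries the raw level fell by 0.82 and 0.85 on the log2 scale. Here 3 members were called lower and 0 higher, against 3.11% and 6.78% of all genes. From GCimm2 to GCyoung the falls were 2.84 ± 0.29 for Sox4 (adjusted p = 1.80e-11) and 1.79 ± 0.20 for Sox11 (adjusted p = 1.29e-09). Sox4 was then at 6.02 and 2.09 CPM in GCyoung of w4 and w8, and Sox11 at 61.0 and 64.8. Of all genes 10.3% were called lower and 9.34% higher at that step, where 2 members were lower and 1 was higher.

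Pooled over libraries, Sox11 in mature granule cells was at a level also found outside the neuronal lineage. Free RNA in the droplets can add UMIs to any nucleus. Pooled Sox11 levels were 28.2 CPM in GCmat1, 59.7 in Astro, 22.2 in OPC, 18.2 in Oligo and 12.6 in the cluster labelled Peri. Within w8 alone, Sox11 had 667 UMIs in 2927 GCmat1 nuclei, 1 in 35 OPC nuclei and 0 in 13 Oligo nuclei. Astro and the cluster labelled Peri had no nuclei in w8. The part of free RNA in the Sox11 level of GCmat1 was not tested, and no statement is made on its expression there. Sox4 was lower in GCmat1 (3.84 CPM, interval 3.16 to 4.62) than in Astro, OPC, Oligo and the cluster labelled Peri, where it lay between 17.9 and 82.9. Sox11 was at 57.6, 38.0 and 26.3 CPM in GCmat1 of w1, w4 and w8 and at 53.0 and 34.3 in GCmat2 of w4 and w8. The GCmat1 value of w1 rested on 9 UMIs in 17 nuclei. Why nuclei collected 1 week after induction carry this label was not tested. Sox11 was found in 18.9% of GCmat1 nuclei (interval 17.6% to 20.2%) and in 5.13% after thinning to 2000 UMIs. The log2 change from GCyoung to GCmat1 was -0.88 ± 0.21, adjusted p = 0.00417, the 1 member called lower (2.53% of all genes; 0 were higher, against 1.71%). That call was lost after thinning, without w4 and without w8, while the raw level fell within w4 and within w8, by 0.68 and 1.30 on the log2 scale. Sox4 was at 6.40 (1 UMI), 4.71 and 3.71 in GCmat1 of w1, w4 and w8, with 1 UMI in 209 nuclei of GCmat2. Over the whole span from NB1 to GCmat1 Sox4 fell by 5.12 ± 0.31 on the log2 scale and Sox11 by 3.48 ± 0.20 (adjusted p = 1.33e-21 and 3.74e-21). Raw levels pooled over the sums in the fit went from 274 to 3.85 CPM for Sox4 and from 671 to 28.0 for Sox11. These raw falls were larger than the fitted ones. The parts of TMM factors, library term and weighting in that gap were not tested. Between GCmat1 and GCmat2 edgeR called 0 members (2 at an unadjusted p under 0.05; 0 called and 1 at that level by DESeq2), against 3.48% higher and 4.43% lower of all genes.

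The make-up of the SoxC pair shifted along with these levels. As a share of the UMIs of both genes, Sox11 held 50.3% in RGL (interval 45.9% to 54.7%), 45.99% in NPC (41.4% to 50.7%), 71.0% in NB1 (70.1% to 71.9%) and 69.7% in NB2. It went on to 80.4% in GCimm1 (79.5% to 81.2%), 85.7% in GCimm2, 91.5% in GCyoung and 88.0% in GCmat1. The change from NB1 to GCimm1 was present in each library: 70.6% to 80.0% in w1, 72.7% to 80.0% in w2 and 62.0% to 83.3% in w4, with intervals that did not overlap. In OPC the share was 21.1% (12.3% to 32.4%), the lowest of all clusters, from 71 UMIs. By library it ran from 6.25% to 33.3%, and after thinning it was 10.3% (3 of 29 UMIs). A share of UMIs is read here only for its change between clusters, since the genes differ in length and overlap. On the other strand Gm26735 covers 57.4% of Sox4 (1796 UMIs of its own), and no feature overlaps Sox11.

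**Figure D3:**
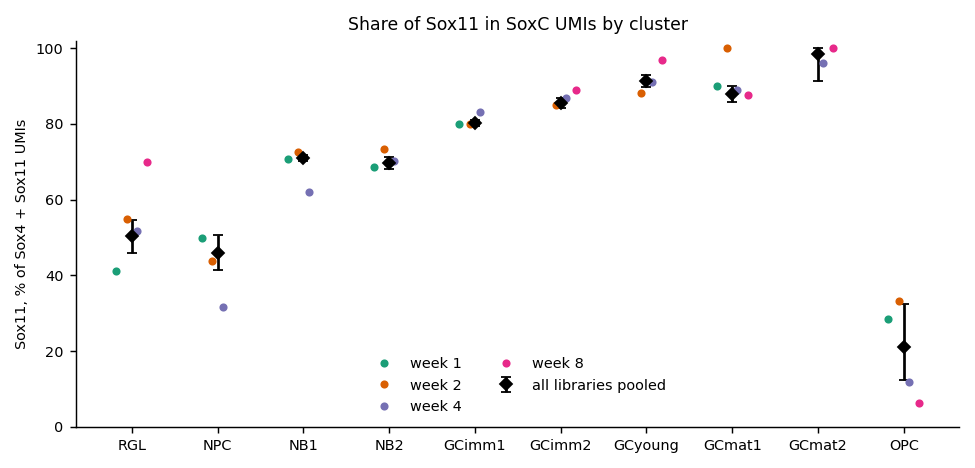
Share of Sox11 among the UMIs of Sox4 and Sox11 (vertical axis, percent) in 10 clusters. Diamonds are all libraries pooled with exact Clopper-Pearson 95% intervals, and small points are libraries with at least 10 such UMIs; the share was 45.99% in NPC, 71.0% in NB1 and 91.5% in GCyoung, and 21.1% in OPC.

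In single nuclei the SoxC genes were found together about as often as their separate shares give. After thinning to 2000 UMIs, 26.7% of NB1 nuclei held a UMI of both Sox4 and Sox11, and the product of their shares was 26.1%. The same values were 14.6% and 12.2% in NPC and 13.9% and 13.8% in GCimm1. For the SoxD pair in NB1 the overlap was larger than the product, with both Sox5 and Sox6 in 9.25% of nuclei (interval 8.14% to 10.5%) against 6.03%. Nuclei of all libraries were pooled for this. Along pseudo-time bins led by NB1 (10 to 16), both genes fell, Sox5 from 612 to 87.1 CPM and Sox6 from 166 to 21.4. The part of that gradient in the overlap was not tested. Nuclei with a UMI of a SoxC and of a SoxD gene made up 13.9% of RGL, 52.9% of NPC, 37.5% of NB1, 30.2% of NB2 and 4.39% of GCimm1, and 20.6% of OPC. The products were 14.2%, 52.8%, 37.0%, 30.6%, 4.43% and 20.5%, so the transcripts of both groups met most often in NPC, at a share close to the product.

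The SoxD genes Sox5 and Sox6 were high in RGL already and fell from neuroblasts on. Sox5 had 1095, 768, 864 and 1010 CPM in RGL of w1, w2, w4 and w8 and was found in 91.6% of RGL nuclei. Sox6 had 1506, 1053, 1226 and 1399 in RGL, in 95.5% of nuclei. In both genes w2 was the lowest RGL library and w1 the highest. In Astro Sox5 was at 590, 445 and 477 (w1, w2, w4) and did not overlap RGL, with a log2 change from Astro to RGL of 0.80 ± 0.19, adjusted p = 0.00224. Sox6 in Astro was at 973, 703 and 1138 and overlapped RGL (log2 change 0.38 ± 0.22, adjusted p = 0.325). Sox5 was the 1 member called higher in RGL than in Astro (5.14% of all genes; 0 were lower, against 5.85%). DESeq2 called 0, with 3 at an unadjusted p under 0.05, where edgeR had 2. The median of all genes in this comparison was 0.21 on the log2 scale with TMM factors and 0.05 with RLE factors, with 46.8% and 34.3% of the calls higher, so the change of Sox5 relative to the median gene was smaller than the fitted value with TMM. RGL held 1387 nuclei and Astro 67.

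The fitted fall of SoxD from RGL to NPC was small, and for Sox6 the call depended on the scaling. Sox5 had 832, 690 and 616 CPM in NPC of w1, w2 and w4, of which the w1 value lay above RGL of w2 and the others below every RGL library, and its log2 change was -0.64 ± 0.17, adjusted p = 0.0026. Sox6 had 1359, 841 and 865 and overlapped RGL, with a log2 change of -0.59 ± 0.21, adjusted p = 0.0204. The Sox6 call was lost in 9 of 14 alternatives, among them RLE factors, DESeq2 and leaving out w2 or w4, while the Sox5 call was kept with RLE factors and DESeq2 and lost without w4 and at a fold of at least 2. By raw level within a library the changes were smaller, from -0.15 to -0.49 for Sox5 and from -0.15 to -0.50 for Sox6. TMM factors were 1.21 to 1.37 in NPC and 0.985 to 1.10 in RGL, and their part in this gap was not tested. The summed RGL marker list fell from 6888 to 2109 CPM between these clusters. Its part in the SoxD values was not tested. Along the deposited pseudo-time, an order of nuclei from RGL to GCmat1, raw levels pooled over libraries went both ways. From the first bin (0 to 2, led by RGL) Sox6 went from 1289 CPM to 1438 at 6 to 8 and 863 at 8 to 10. Sox5 went from 930 CPM to 807 and 1035 in the same bins, and both later bins were led by NPC.

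From progenitor to neuroblast both SoxD genes fell, with a larger fitted change for Sox6; the difference between the genes was not tested. Sox6 dropped to 137, 96.6 and 103 CPM in NB1 of w1, w2 and w4, a fall by 2.94 ± 0.22 on the log2 scale, adjusted p = 1.05e-15. Sox5 was at 400, 300 and 379, a fall by 0.78 ± 0.18, adjusted p = 0.000417. In NB1 54.0% of nuclei still held a Sox5 UMI (interval 52.0% to 55.9%), and 22.1% a Sox6 UMI (20.6% to 23.8%). The next fall came for both genes from NB1 to GCimm1, by 3.20 ± 0.19 for Sox5 (adjusted p = 2.68e-18) and 3.96 ± 0.32 for Sox6 (adjusted p = 2.02e-15). Sox5 was then at 59.5, 27.7 and 30.2 CPM in GCimm1 of w1, w2 and w4, and Sox6 at 21.4, 5.03 and 1.85, with w1 the highest library for both. From GCimm1 to GCimm2 Sox5 fell by 1.35 ± 0.26 (adjusted p = 0.000101), a call lost after thinning, while Sox6 had 5.44 and 2.67 CPM pooled and did not pass (adjusted p = 0.270). In GCmat1 Sox5 was found in 2.53% of nuclei and Sox6 in 0.566%, log2 changes from NB1 of -5.92 ± 0.27 and -6.93 ± 0.51 (adjusted p = 1.14e-25 and 6.23e-21). Raw levels pooled over the sums in the fit fell more, from 362 to 3.78 CPM for Sox5 and from 121 to 0.653 for Sox6. Of the 8 members tested 5 were called lower in GCmat1 than in NB1 (22.0% of all genes) and 1 higher (20.5%).

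SoxD levels were highest in OPC and nearly gone in Oligo. Sox5 was at 1618, 1396, 1421 and 1710 CPM in OPC of w1, w2, w4 and w8, above all RGL libraries, with a log2 change from RGL of 0.87 ± 0.15, adjusted p = 3.41e-06. Sox6 was at 2431, 1941, 2267 and 2590, also above all RGL libraries, with 0.98 ± 0.18, adjusted p = 1.12e-05. A Sox6 UMI was found in 100% of the 131 OPC nuclei (interval 97.2% to 100%) and a Sox5 UMI in 97.7%. In Oligo Sox5 had 1, 2 and 0 UMIs in w2, w4 and w8 and Sox6 had 0, 2 and 0. The log2 changes from OPC to Oligo were -6.81 ± 0.87 for Sox5 and -7.98 ± 1.25 for Sox6 (adjusted p = 3.85e-20 and 1.94e-19). With Sox4 they were the 3 members called lower in Oligo (13.2% of all genes; 0 were higher, against 6.70%). Oligo held 45 nuclei, and the median of all genes between OPC and Oligo was -0.43 on the log2 scale (-0.30 with RLE factors). In the cluster labelled Peri, Sox5 was at 326 and 113 CPM in w1 and w2 and Sox6 at 193 and 47.1. The RGL marker list summed to 3118 there against 6888 in RGL, and its part in these SoxD values was not tested.

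Antisense features within Sox5 were highest in OPC, at few UMIs. Sox5os4, with 238 UMIs in all and 62 in OPC, had 91.8 CPM in OPC and 0.820 in RGL (log2 change 6.88 ± 0.75, adjusted p = 5.16e-16), and Sox5os2 had 37.0 and 0.164 (7.88 ± 1.71, adjusted p = 2.50e-10). Sox5os4 was also found in Astro (11.9 CPM from 4 UMIs), NB1 (9.18) and NB2 (8.10), and it was called lower in RGL than in Astro and in GCimm1 and GCmat1 than in NB1. Both features lie inside Sox5 on the opposite strand. The authors report default parameters for the counting of UMIs and do not name the strand setting. Sox5it, inside Sox5 on the same strand, was at 0 UMIs. Of the other features on the opposite strand, Sox5os5 was at 0, Sox5os1 had 6 and Sox5os3 47. Whether Sox5 RNA is part of the levels of Sox5os4 and Sox5os2 was not tested.

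The SoxE gene Sox9, which specifies and maintains neural stem cells and astrocytes, was highest in Astro and RGL. Its level was 199, 205 and 152 CPM in Astro of w1, w2 and w4, and 143, 153, 125 and 51.0 in RGL of w1, w2, w4 and w8. The RGL library w8 stood low, with 16 UMIs in 83 nuclei (interval 29.2 to 82.8, below those of the other 3 libraries). As each week is 1 pool, no test of that difference was possible. In RGL of w8 the astrocyte list was at 4969 CPM, against 3921, 3394 and 3250 in w1, w2 and w4, and the neuroblast list at 76.5, the lowest of the 4 libraries, and their part in the Sox9 value was not tested. Astro and RGL overlapped, with a log2 change of -0.46 ± 0.27, adjusted p = 0.353. In NPC Sox9 was at 34.1, 61.6 and 91.7 in w1, w2 and w4, below RGL of w1, w2 and w4 and around that of w8. The log2 change from RGL to NPC was -1.79 ± 0.31, adjusted p = 1.11e-06, and within libraries the raw change was -2.07, -1.31 and -0.45, the last with an interval that spans 0.

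In neuroblasts Sox9 was at 7.86, 8.07 and 6.72 CPM (NB1 of w1, w2 and w4), a fall from NPC by 2.42 ± 0.36 on the log2 scale, adjusted p = 9.86e-07. In NB2 it was at 9.40, 11.95 and 115, and the high value in w4 came from 9 UMIs in 4 of 18 nuclei, with 4 of them in 1 nucleus. The RGL marker list was also higher in that sum, at 320 CPM against 133 and 147 in NB2 of w1 and w2, and so was Sox6 (167 against 59.5 and 57.1). Their part in the Sox9 value was not tested. From NB1 to GCimm1 Sox9 was called lower (log2 change -1.03 ± 0.37, adjusted p = 0.0472), but the call was lost in 9 of 14 alternatives, including each one that left out a library. From NB1 to GCmat1 it fell by 2.31 ± 0.65 (adjusted p = 0.000534), a call lost after thinning. Its raw level pooled over the sums in the fit fell more, from 7.89 to 0.378 CPM. In OPC 4 UMIs were found in 131 nuclei (5.92 CPM), lower than in RGL by a log2 change of -4.18 ± 0.87, adjusted p = 2.49e-09. In Oligo 0 of 45 nuclei held a UMI, which allows a share of up to 6.67%.

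Sox8 was shared by stem cells, progenitors and all glial clusters. It had 38.3, 116 and 108 CPM in Astro of w1, w2 and w4, and 46.1, 77.5, 58.9 and 35.1 in RGL of w1, w2, w4 and w8. In NPC it had 46.1, 80.1 and 197 in w1, w2 and w4. These 3 groups overlapped, and neither step passed the test (adjusted p = 0.359 from Astro to RGL and 0.694 from RGL to NPC). The NPC value of w4 rested on 15 UMIs in 22 nuclei (interval 110 to 324). In that sum the astrocyte list was at 1429 CPM, against 976 and 1047 in NPC of w1 and w2, and the neuroblast list at 1219 against 2030 and 1731. Their part in the Sox8 and Sox9 values of NPC in w4 was not tested. At the neuroblast step Sox8 fell to 2.36, 2.45 and 4.48 CPM in NB1, by 4.59 ± 0.40 on the log2 scale, adjusted p = 7.85e-15. Every NB1 library stood below every NPC library.

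Sox8 was at a low level in granule cells, and the part of free RNA from RGL and glia in it was not tested. It was at 6.40 and 8.37 CPM in GCyoung of w4 and w8, against 1.40, 2.16 and 6.66 in GCimm2 of w2, w4 and w8. The GCimm2 value of w8 came from 28 nuclei with 150112 UMIs of all genes and was at the limit of detection. The log2 change from GCimm2 to GCyoung was 2.11 ± 0.52, adjusted p = 0.000395, and the call was lost after thinning and without w2. A UMI was found in 5.01% of GCyoung nuclei (interval 4.13% to 6.01%) and in 1.05% of NB1 nuclei, at median depths of 7458 and 4057.5 UMIs. At 2000 UMIs per nucleus these shares were 1.56% and 0.603%. From NB1 to GCmat1 the log2 change was 1.33 ± 0.44 (adjusted p = 0.00722), lost with DESeq2, after thinning, without w2 and without w8, and the intervals within w1 and within w4 spanned 0.

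Sox10, which specifies oligodendrocyte precursors and activates myelin genes, was found almost only in OPC and Oligo. It had 452, 516, 363 and 323 CPM in OPC of w1, w2, w4 and w8, and 450, 329 and 255 in Oligo of w2, w4 and w8. The 2 clusters overlapped, with a log2 change from OPC to Oligo of -0.49 ± 0.28, adjusted p = 0.235, close to the median of all genes there. In RGL it was at 0 in w1, w2 and w8 and at 2.94 in w4 (4 UMIs), and the log2 change from RGL to OPC was 9.38 ± 0.81, adjusted p = 3.14e-27. A UMI was found in 82.4% of OPC nuclei (interval 74.8% to 88.5%) and in 73.3% of Oligo nuclei (58.1% to 85.4%). In GCimm1, GCimm2, GCyoung and GCmat1 the share lay between 0.0894% and 0.409%. It was 0 of 67 in Astro, which allows up to 4.48%, and 0 of 211 in NPC, which allows up to 1.42%.

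Sox8 followed Sox10 in the oligodendrocyte lineage. It had 146, 136, 182 and 128 CPM in OPC, above all 4 RGL libraries, a log2 change from RGL of 1.46 ± 0.23, adjusted p = 1.45e-06. In Oligo it had 131, 158 and 59.9 (w2, w4, w8) and overlapped OPC (log2 change -0.66 ± 0.40, adjusted p = 0.248). Sox4 was also higher in OPC than in RGL, at 76.7, 77.8, 93.9 and 83.5 CPM (log2 change 1.31 ± 0.28, adjusted p = 0.000289), whereas Sox11, at 30.7, 38.9, 12.5 and 5.57, overlapped RGL (adjusted p = 0.213). Sox4 fell from OPC to Oligo by 1.89 ± 0.77, adjusted p = 0.0300, a call lost in 5 of 12 alternatives. From RGL to OPC 6 of the 8 members were called higher and 1 lower, where 14.5% and 15.2% of all genes were.

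**Figure D4:**
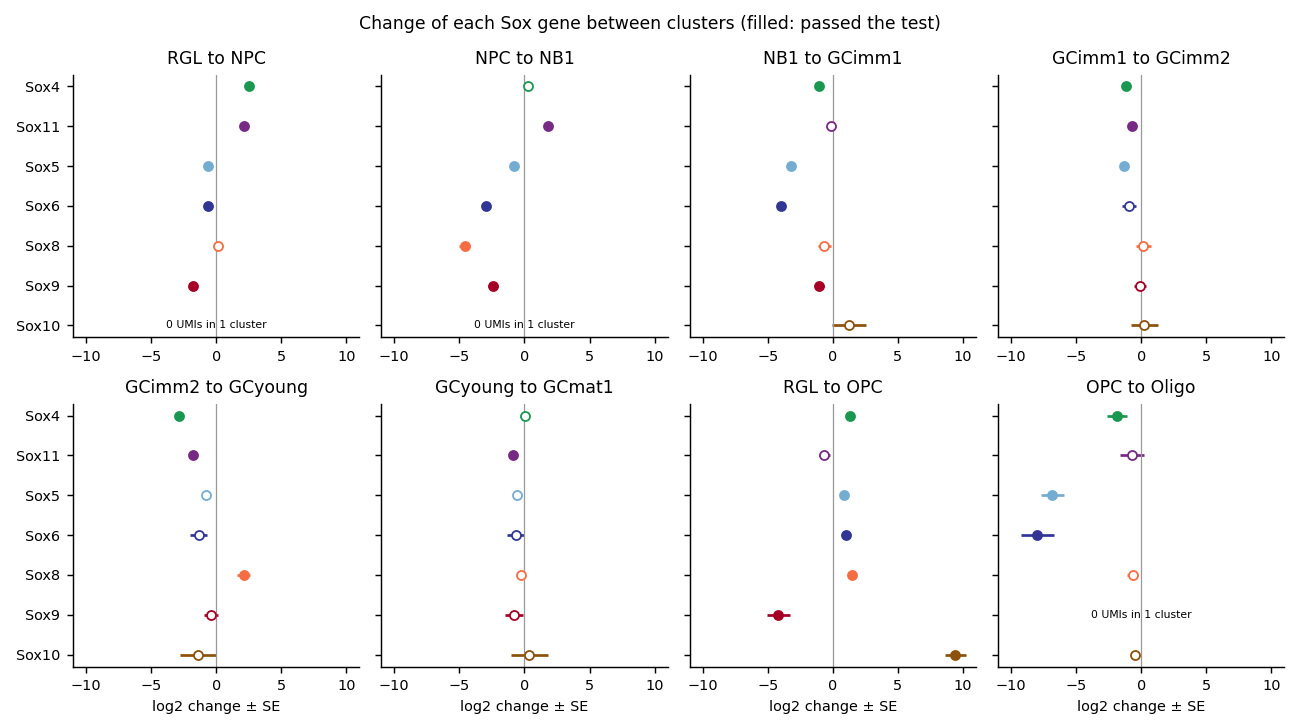
Fitted log2 change (horizontal axes, with SE) of 7 Sox genes in 8 comparisons between clusters, second cluster against first. Filled points passed the test and open points did not, and no value is drawn where a cluster had 0 UMIs; Sox4 and Sox11 are both higher in NPC, Sox6 and Sox8 fall at NPC to NB1, and Sox10 is higher in OPC.

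The deposited pseudo-time, which orders the nuclei from RGL to GCmat1, set the members in sequence. In bins of 2 units with at least 20 nuclei, pooled over libraries, Sox9 and Sox21 were highest in the first bin (0 to 2), Sox6 and Sox8 at 6 to 8, Sox4 and Sox5 at 8 to 10 and Sox11 at 10 to 12. The highest levels were 139 CPM for Sox9, 1438 for Sox6, 117 for Sox8, 378 for Sox4, 1035 for Sox5 and 678 for Sox11. Each gene then fell below 50% of its own highest bin in the order Sox8 and Sox9 (8 to 10), Sox6 and Sox21 (10 to 12), Sox5 (12 to 14), Sox4 (16 to 18) and Sox11 (20 to 22). Below 10% came Sox8 and Sox9 at 10 to 12, Sox6 at 12 to 14, Sox5 at 14 to 16, Sox4 at 20 to 22 and Sox11 at 26 to 28. Within SoxC and within SoxD the genes thus went down 1 after the other, Sox6 before Sox5 and Sox4 before Sox11. In the last bin (30 to 32) Sox11 was still at 27.3 CPM, 4.02% of its highest bin, and Sox8 at 4.69 (4.00%). The pseudo-time was made from the same expression values, so this order is a description and not a test.

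**Figure D5:**
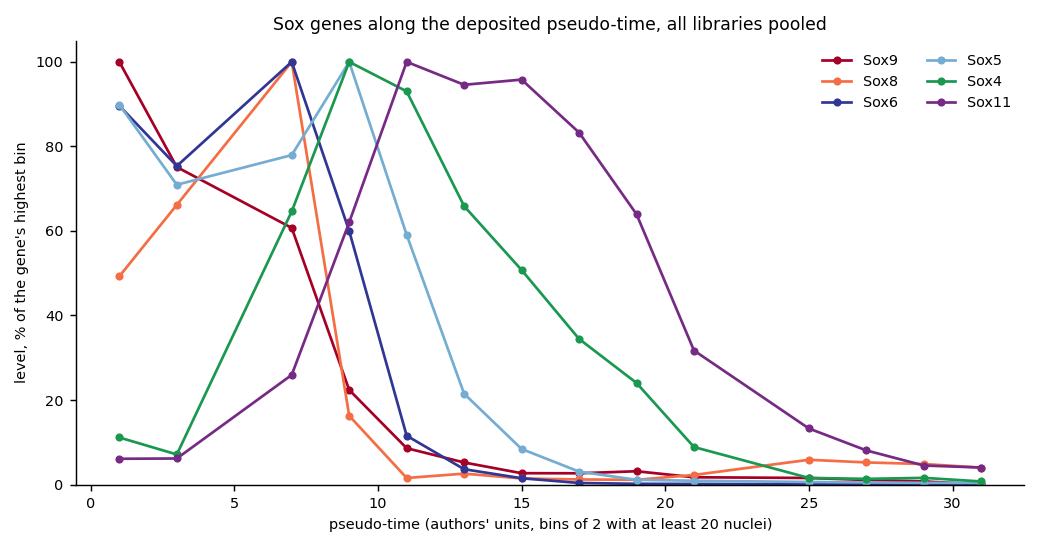
Level of 6 Sox genes as a percent of each gene's highest bin (vertical axis) along the deposited pseudo-time (horizontal axis, points at the middle of bins of 2 units, all libraries pooled; lines join across bins with fewer than 20 nuclei). Sox9, Sox8, Sox6, Sox5, Sox4 and Sox11 fall below 50% in this order, with Sox8 and Sox9 in the same bin.

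The other Sox genes in the count tables were few. Of the 10 listed, 2 passed the filter on low counts. Sox13, the third SoxD gene, was at 48.5 CPM in RGL and 27.4 in NPC, lower by a log2 change of -1.21 ± 0.44 (adjusted p = 0.0188), and fell to NB1 by 2.18 ± 0.50 (adjusted p = 0.000787). It also had 19.3 in OPC, lower than in RGL (log2 change -1.25 ± 0.54, adjusted p = 0.0460), whereas Sox5 and Sox6 were higher there. Sox12, the third SoxC gene, lay between 4.55 and 14.8 CPM over the clusters and was called in 0 of 12 comparisons.

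Partners and targets of the Sox groups were counted from lists of named genes. Of the stem cell genes linked to SoxB1, 9 of 12 were tested, and 0 were higher and 5 lower in NPC than in RGL (median log2 change -1.12, all genes -0.04), and 0 higher and 7 lower in NB1 than in NPC (-2.34, all genes 0.05). The shares of all genes called lower at these steps were 16.8% and 16.0%. Gfap, an intermediate filament of astroglia, had a log2 change of -2.44 ± 0.39 from RGL to NPC, and Hes5, a Notch effector, of -2.59 ± 0.50. Notch1, a receptor that keeps stem cells undifferentiated, had 148 CPM in RGL and 151 in NPC and did not pass the test there. From NPC to NB1 its log2 change was -3.44 ± 0.24, at the step where Gm5607, Sox2ot, Sox6 and Sox8 also fell.

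For the neuronal genes linked to SoxC, 6 of 8 were tested, with 3 higher and 1 lower in NPC than in RGL (median 0.88, all genes -0.04) and 3 higher and 2 lower in NB1 than in NPC (median 0.80, all genes 0.05). Of all genes 14.8% were called higher and 16.8% lower at the first of these steps, and 15.4% and 16.0% at the second. Dcx, a microtubule protein of migrating neurons, rose at both steps, from 5.25 to 197 and 455 CPM (log2 changes 4.82 ± 0.36 and 1.54 ± 0.21). Tead2, which binds DNA in the Hippo pathway, rose with Sox4 from RGL to NPC (log2 change 1.80 ± 0.29) but fell to NB1 by 2.31 ± 0.29. Prox1, which sets granule cell identity, rose from NPC to NB1 (1.71 ± 0.19). From NB1 to GCmat1 5 were lower and 1 higher (median -1.90, all genes -0.05; 22.0% and 20.5% of all genes), with Dcx down by 2.94 ± 0.22 and Neurod2, a proneural factor kept in mature neurons, called higher (log2 change 0.64 ± 0.23). By pooled raw level Neurod2 was at 83.3 CPM in NB1 and 66.5 in GCmat1, opposite in direction to the fitted change. The fit differs from the raw level in TMM factors, library term and weighting, and their parts were not tested.

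Of the 15 oligodendrocyte genes linked to SoxE, all tested, 8 were higher in OPC than in RGL and 1 was lower (median 5.53, all genes -0.14; the latter was -0.01 with RLE factors). Pdgfra, the growth factor receptor of precursors, went from 0.656 to 850 CPM and Olig2, a lineage factor, from 0.984 to 142. Tcf7l2 was the gene that was lower (log2 change -1.26 ± 0.23). Of all genes 14.5% were called higher and 15.2% lower there. From OPC to Oligo 7 were higher and 5 lower (median 1.15, all genes -0.43; 6.70% and 13.2% of all genes), with the myelin gene Mbp up from 35.5 to 6357 CPM and Myrf, which drives myelination, from 20.7 to 204. Olig2 fell by 1.61 ± 0.59 and Cspg4 by 5.13 ± 1.04, as did the SoxD genes, while Sox8, Sox10 and Olig1 were not called. The nuclear factor I genes Nfia, Nfib and Nfix, partners of Sox9 in gliogenesis, were called in both directions: 2 of 3 were higher in NPC than in RGL and 0 lower, and 3 of 3 were lower in OPC than in RGL and in GCmat1 than in NB1. The shares of all genes called were 14.8% higher and 16.8% lower from RGL to NPC, 15.2% lower from RGL to OPC and 22.0% lower from NB1 to GCmat1. Of the same 3 genes, 2 were lower from NB1 to GCimm1 (5.20% of all genes), 1 from GCimm1 to GCimm2 (3.11%) and 1 from GCimm2 to GCyoung (10.3%). From OPC to Oligo 1 was higher and 2 were lower, where 6.70% and 13.2% of all genes were. Sox9 was called lower from RGL to NPC, NPC to NB1, NB1 to GCimm1, NB1 to GCmat1 and RGL to OPC. Of the nuclear factor I genes 0 were called from NPC to NB1, where 15.4% of all genes were called higher and 16.0% lower. From RGL to NPC, Nfib rose (log2 change 0.99 ± 0.19).

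Over the 13 clusters, the log2 level of Sox5 followed that of Sox6 most closely among 11548 genes (Pearson r = 0.974 over 13 clusters), and the reverse was also true. The genes closest to Sox10 were Gjc3 (0.988) and Zfp488 (0.982, 19 UMIs). Those closest to Sox9 were Mfge8 (0.969) and Gfap (0.965), and those closest to Sox11 were Hn1 (0.976) and Rnf138 (0.9501). For Sox4 they were Pafah1b3 (0.964) and Ddah2 (0.962), and for Sox21 Bcan (0.964) and Cyp2j8 (0.955). Sox8 had RP24-277H8.2 (0.9498, 48 UMIs) and Pgp (0.932). The members of the other pairs were less alike, with r = 0.667 for Sox4 and Sox11, 0.579 for Sox8 and Sox10, 0.361 for Sox8 and Sox9 and -0.326 for Sox9 and Sox10. These values describe 13 points that share libraries, depth and the clustering.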

How the data were processed

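The authors made the deposited UMI counts with STARsolo 2.7.4a on mm10 (GRCm38), from droplet-based single-nucleus RNA-seq, over exons and introns and without multi-mapped reads, so long genes gain intronic UMIs. The deposited table of log2 values (counts over scran size factors, 1 added, made by the authors) was used only for its gene names and for the annotation of nuclei (their library, cluster and pseudo-time). They removed nuclei under their feature minimum, scDblFinder doublets, high mitochondrial shares and a group of w4 nuclei. Cohorts were processed over several days with 2 time points a day.

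Counts were summed per cluster and library and fitted with edgeR 4.0.16 (R 4.3.3, filterByExpr, TMM, glmQLFit, glmQLFTest; cluster and library terms; 22 residual degrees of freedom; 12 comparisons). The SE is a Wald SE with the quasi-dispersion. The code was tested on simulated data, and a change that did not pass the test is not shown to be absent. Alternatives were RLE factors, DESeq2 1.42.0, no library term, no filter, other minimum nuclei (5, 20), trajectory clusters and astrocytes only, thinning to 2000 UMIs, other folds (2 or none), only genes of the authors' table in the total, libraries weighted equally, and each library left out. Named genes were all members, 2 to 4 examples per list, meant to be those of the highest level but in part chosen after their values were seen, and the 2 closest patterns for members with at least 50 UMIs (log2 of the level plus 1). The members and lists were chosen with earlier results of these data known. Levels are limited by depth: a count of 0 allows 3 counts. Libraries are pools, so p-values rest on the spread left between sums after the cluster and library terms, not on the spread between mice. Positions came from GENCODE M21 and promoters from RefSeq. Figures used matplotlib 3.10.9, and tables pandas 2.3.3, numpy 2.4.6 and scipy 1.17.1. The driver gene of the Cre line is not reported here.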

Additional observations from a re-analysis of the deposited data

Results flagged for a closer look

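Sox10 in RGL of w4 stood apart from the other libraries, at 2.94 CPM from 4 UMIs, against 0 in w1, w2 and w8. Of groups of 4 libraries 16 were checked in this way, by a rule set to mark about 1 in 20 by chance. That rate does not hold here, since the rule always marks a library above 0 where the others are at 0.

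The 2679 barcodes without a deposited cluster were used in no comparison, and 8 members had UMIs in them. The levels there were 0.594 CPM for Sox21 (0.783 in the nuclei kept), 38.3 for Sox4 (75.1), 149.9 for Sox11 (235), 100.5 for Sox5 (143) and 113 for Sox6 (135). They were 9.04 for Sox8 (9.91), 12.99 for Sox9 (13.2) and 9.47 for Sox10 (4.13) over all libraries. Of these barcodes 1628 came from w4. From that library the authors left out a group of nuclei, mostly with male-associated expression, that they propose could belong to an outlier mouse. How many of the 1628 barcodes are in that group was not checked. Sox10 was higher outside the clusters in all 4 libraries (24.8 against 5.22 in w1, 11.1 against 5.91 in w2, 3.86 against 3.45 in w4 and 28.8 against 2.76 in w8). Sox6 and Sox8 were higher outside in w1, w2 and w8 and lower in w4, as was Sox9 (35.5 against 34.3 in w1).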

How the results depend on the processing

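Of the counts of called members and the Sox11 shares of SoxC UMIs, 164 values under an alternative stayed within the limits set and 14 moved. From Astro to RGL 0 members were called by DESeq2 and 0 at a fold of at least 2, against 1. From RGL to NPC 3 were called at a fold of at least 2, and 3 to 5 with a library left out, against 5. From NB1 to NB2 1 (Sox6) was called without the low-count filter, with at least 20 nuclei per sum and after thinning, against 0. From GCyoung to GCmat1 0 were called after thinning and 0 at a fold of at least 2, and 0 to 1 with a library left out, against 1. Thinning put the Sox11 share at 10.3% in OPC (21.1% before), within the limit set by the spread between libraries. It moved the share past that limit to 84.8% in GCmat1, 94.4% in GCmat2 and 20.0% in the cluster labelled Peri. The cause of these moves was not tested. No change of a called member reversed. Among single genes 1216 values kept their side, 48 lost a call, 6 gained one and 40 moved or changed sign without having been called, among them the highest level of each of 8 members, which was higher with only genes of the authors' table in the total. With trajectory clusters and astrocytes only, the OPC and Oligo comparisons have no value. DESeq2 moved the share of calls that were higher from 46.8% to 26.5% (Astro to RGL), 62.5% to 79.3% (NB1 to NB2), 48.7% to 59.8% (RGL to OPC), 40.3% to 24.0% (GCyoung to GCmat1) and 47.6% to 36.4% (GCimm2 to GCyoung). The clusters of a library were tied by the library term of the fit; between weeks, each of 1 library, nothing was paired. Depth limits Sox21 and Sox10 outside OPC and Oligo, and Sox9 in OPC, to a few UMIs.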
